A study of Mus musculus with 18 samples.

Results

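The aryl hydrocarbon receptor (AHR) works with a partner protein and is held ready by a chaperone complex, and the genes described here encode those proteins in eosinophils of the mouse small intestine. Members were chosen by gene name: Arnt and Arnt2, the dimer partners; Hsp90aa1, Hsp90ab1 and Ptges3, the cytosolic chaperones; and Hif1a and Epas1, hypoxia factors that share ARNT with AHR. All 7 were found among the 22708 genes of the deposited table. RNA was sequenced in bulk from 18 samples of sorted eosinophils, 6 from wild-type (WT) mice, 6 from Ahr knockout (Ahr-/-) mice and 6 from mice labelled as Ahrr knockout (labelled Ahrr-/-), each genotype with 3 males and 3 females. The labels give the strain of every sample as C57/BL6 and name no treatment, and mice of the study were 6 to 14 weeks old. Cells had been enriched for CD11b and then sorted as CD11b+MHC-II-SiglecF+SSChi, so a sample is a population that can hold other cells carried along. WT mice were neither littermates nor cage mates of the Ahr-/- mice, so genotype and housing cannot be told apart. The samples ask what loss of AHR, or of its repressor AHRR, does to gene expression in these cells.

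AHR is a ligand-activated transcription factor of the bHLH-PAS family that senses dietary, microbial and environmental compounds and is active in many immune cells of the gut. Without ligand it sits in the cytosol bound to HSP90 and the co-chaperone p23; after ligand binding it enters the nucleus, exchanges the chaperones for ARNT and binds DNA, while its target AHRR competes with it. ARNT, also called HIF-1beta, is equally the partner of HIF1A and EPAS1 (HIF-2alpha), factors that oxygen-dependent hydroxylation and VHL keep low at normal oxygen.

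Total counts per sample ran from 3842977 to 8149200 in WT (median 6022409), from 6581818 to 10284124 in Ahr-/- (median 9647589) and from 8788867 to 12046933 in samples labelled Ahrr-/- (median 10371556). Values are the authors' variance-stabilized expression on a log2 scale, on which 5.02 stands for a count of 0. Ahrr, the AHR repressor gene, had values of 9.79 to 10.39 in WT (median 10.12), 5.02 to 5.79 in Ahr-/- (median 5.25) and 9.95 to 10.93 in samples labelled Ahrr-/- (median 10.37). So Ahrr was near the floor in all 6 Ahr-/- samples and as high in the samples labelled Ahrr-/- as in WT, which goes against that label as far as the RNA of the whole gene can show. Ahr itself ran from 13.40 to 14.40 in WT (median 13.76), from 14.15 to 14.67 in Ahr-/- (median 14.55) and from 13.03 to 14.42 in samples labelled Ahrr-/- (median 13.51), so Ahr RNA was not lower in the knockout. The position of the deleted sequence was not given in the sources used here, and a whole-gene value cannot check a deletion of part of a gene. Of 6 known AHR targets listed, 3 passed the minimum level, and Cyp1b1, Tiparp and Nqo1 were all lower in Ahr-/- than in WT (-4.07, -2.60 and -1.82 log2; limma adjusted p = 1.93e-08, 1.56e-07 and 1.27e-07). In samples labelled Ahrr-/- the same 3 differed from WT by -0.15 to 0.41 log2, and limma called 0 of them (0 at an unadjusted p below 0.05, 0 with limma voom).

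Among 13 eosinophil marker genes 8 passed the minimum. Ccr3, the eotaxin receptor, had a mean of 13.59 ± 0.26 log2 in WT, 13.63 ± 0.22 in Ahr-/- and 13.30 ± 0.59 in samples labelled Ahrr-/- (SD, n = 6 each). Siglecf, used for the sort, stood at 11.03 ± 0.20, 11.40 ± 0.16 and 10.68 ± 0.48 log2 in the same order. Of the granule genes, Epx, Prg3, Ear1, Ear2 and Ear6 stayed below the minimum. Prg2, the major basic protein gene, did not: it had means of 7.03 ± 0.34 log2 in WT, 9.33 ± 0.60 in Ahr-/- and 7.26 ± 0.49 in samples labelled Ahrr-/- (SD, n = 6 each), and rose by 2.30 from WT to Ahr-/- (limma adjusted p = 3.47e-07).

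Levels of different genes were compared as normalized counts per kilobase of exon. In WT the order of the members was Hsp90ab1 (1564 ± 551), Hsp90aa1 (1075 ± 304), Hif1a (676 ± 219), Ptges3 (249 ± 74.6), Arnt (161 ± 34.9), Epas1 (23.0 ± 5.08) and Arnt2 (0.797 ± 1.13; mean and SD per kilobase, n = 6). The same order held for the means of all 3 genotypes. Neighbours were not all apart: in WT the samples of Hsp90ab1 and Hsp90aa1, of Hsp90aa1 and Hif1a, and of Ptges3 and Arnt overlapped, whereas Hif1a was above Ptges3, Arnt above Epas1 and Epas1 above Arnt2 in every sample. In Ahr-/- the samples of Hif1a (249 to 536 per kilobase) reached down to those of Ptges3 (203 to 287 per kilobase).

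**Figure D1:**
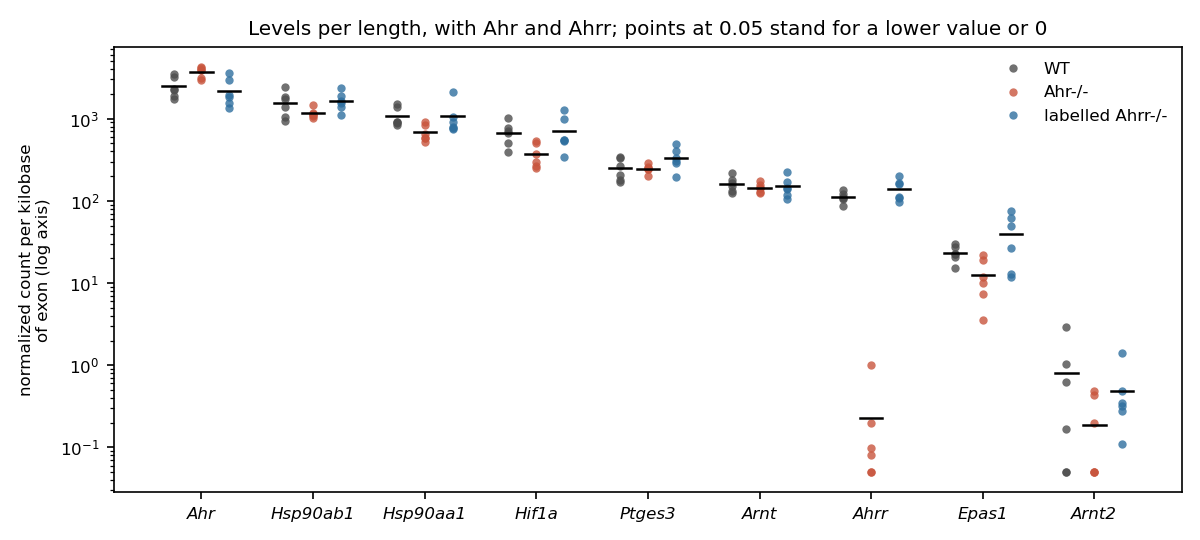
Normalized counts per kilobase of exon (log axis) for the members, with Ahr and Ahrr, 1 point a sample (n = 6 a genotype) and a line at each mean. Among the members, the chaperone genes Hsp90ab1 and Hsp90aa1 stand highest, Arnt is at 161 per kilobase in WT, and Epas1 and Arnt2 are lowest.

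Ahr had the highest mean of these transcripts per kilobase, at 2466 ± 710 in WT (SD, n = 6). Hsp90ab1 was above it in some samples: Ahr to Hsp90ab1 ran from 0.784 to 3.34 in WT and from 0.723 to 3.24 in samples labelled Ahrr-/-. The ratio of Ahr to Arnt per kilobase was 15.3 ± 3.09 in WT, 25.6 ± 3.85 in Ahr-/- and 14.4 ± 2.30 in samples labelled Ahrr-/- (SD, n = 6 each). Ranges of that ratio were 12.7 to 21.4 in WT and 20.5 to 30.9 in Ahr-/-, which overlapped at the edge. Ahr reads of Ahr-/- samples come from the targeted allele but were divided by the exon length of the whole gene (6163 bases). Hif1a to Arnt stood at 4.12 ± 0.59 in WT, 2.53 ± 0.62 in Ahr-/- and 4.52 ± 1.07 in samples labelled Ahrr-/- (SD, n = 6 each). Arnt was thus the scarcer RNA of either pair in all 3 genotypes, with protein not measured here.

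Arnt (Entrez 11863, chr3:95434388-95497240, plus strand, GRCm38) encodes the shared partner. Its deposited values were 10.04 to 10.83 log2 in WT (median 10.37), 10.06 to 10.50 in Ahr-/- (median 10.25) and 9.84 to 10.85 in samples labelled Ahrr-/- (median 10.23). All 3 genotypes overlapped almost completely, and the group means lay within 0.13 log2 of each other. Arnt2 (Entrez 11864, chr7:84246278-84410176, minus strand), the paralog used mainly by neurons, was all but missing: counts were 0 to 11 in WT, 0 to 4 in Ahr-/- and 1 to 17 in samples labelled Ahrr-/-. With so few counts it fell below the minimum for the fit over all genes. Exact two-sided permutation tests over 924 assignments gave p = 0.286 for Ahr-/- against WT, p = 0.994 for labelled Ahrr-/- against WT and p = 0.0866 for labelled Ahrr-/- against Ahr-/-.

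Hif1a (Entrez 15251, chr12:73901375-73947530, plus strand) encodes the widely used hypoxia factor. Its values were 11.22 to 12.57 log2 in WT (median 11.995), 10.58 to 11.65 in Ahr-/- (median 10.997) and 11.03 to 12.87 in samples labelled Ahrr-/- (median 11.70). Of the 6 Ahr-/- samples, 4 lay below every WT sample, and females F1 and F2 reached into the WT range. The lowest sample was the male M3 in each of the 3 genotypes. An antisense gene and a gene on the same strand, Gm15283 and Gm49321, are annotated over the Hif1a locus, and a pseudogene on the same strand, Gm42672, over Arnt. Which of them the reads of an overlap came from is uncertain, and the labels do not say whether the libraries mark strand.

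Epas1 (Entrez 13819, chr17:86753700-86833410, plus strand), the hypoxia factor best known from endothelium and a few epithelial and interstitial cells, was low. Counts per sample were 41 to 130 in WT, 24 to 164 in Ahr-/- and 68 to 543 in samples labelled Ahrr-/-. On the log2 scale it ran from 7.15 to 7.82 in WT (median 7.53), from 6.13 to 7.52 in Ahr-/- (median 6.87) and from 6.94 to 8.93 in samples labelled Ahrr-/- (median 8.05). Spread was widest in the last group, where M1, M3 and F3 were at 8.40 or more and F1 and F2 near 7, below all WT samples.

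Hsp90aa1 (Entrez 15519, chr12:110690605-110702728, minus strand) encodes the stress-inducible cytosolic HSP90. Its values were 11.72 to 12.56 log2 in WT (median 11.82), 11.06 to 11.82 in Ahr-/- (median 11.28) and 11.55 to 13.04 in samples labelled Ahrr-/- (median 11.73). The lowest WT sample was above 4 of 6 Ahr-/- samples, while the other 2, F2 and F3, fell inside the WT range. Hsp90ab1 (Entrez 15516, chr17:45567775-45573271, minus strand), the constitutive form, ran from 11.51 to 12.84 log2 in WT (median 12.20), from 11.60 to 12.11 in Ahr-/- (median 11.75) and from 11.71 to 12.80 in samples labelled Ahrr-/- (median 12.23). Here the Ahr-/- samples sat inside the WT range, below its median. Ptges3 (Entrez 56351, chr10:128058954-128077272, plus strand) encodes p23, the co-chaperone that stabilizes the closed HSP90 dimer. Its values were 8.79 to 9.67 log2 in WT (median 9.18), 9.001 to 9.45 in Ahr-/- (median 9.26) and 8.95 to 10.17 in samples labelled Ahrr-/- (median 9.59). Values of the 3 groups overlapped, with 5 of 6 labelled Ahrr-/- samples above every Ahr-/- sample. The HSP90 genes share long stretches of sequence and Ptges3 has an annotated pseudogene, so how their reads were divided is uncertain.

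**Figure D2:**
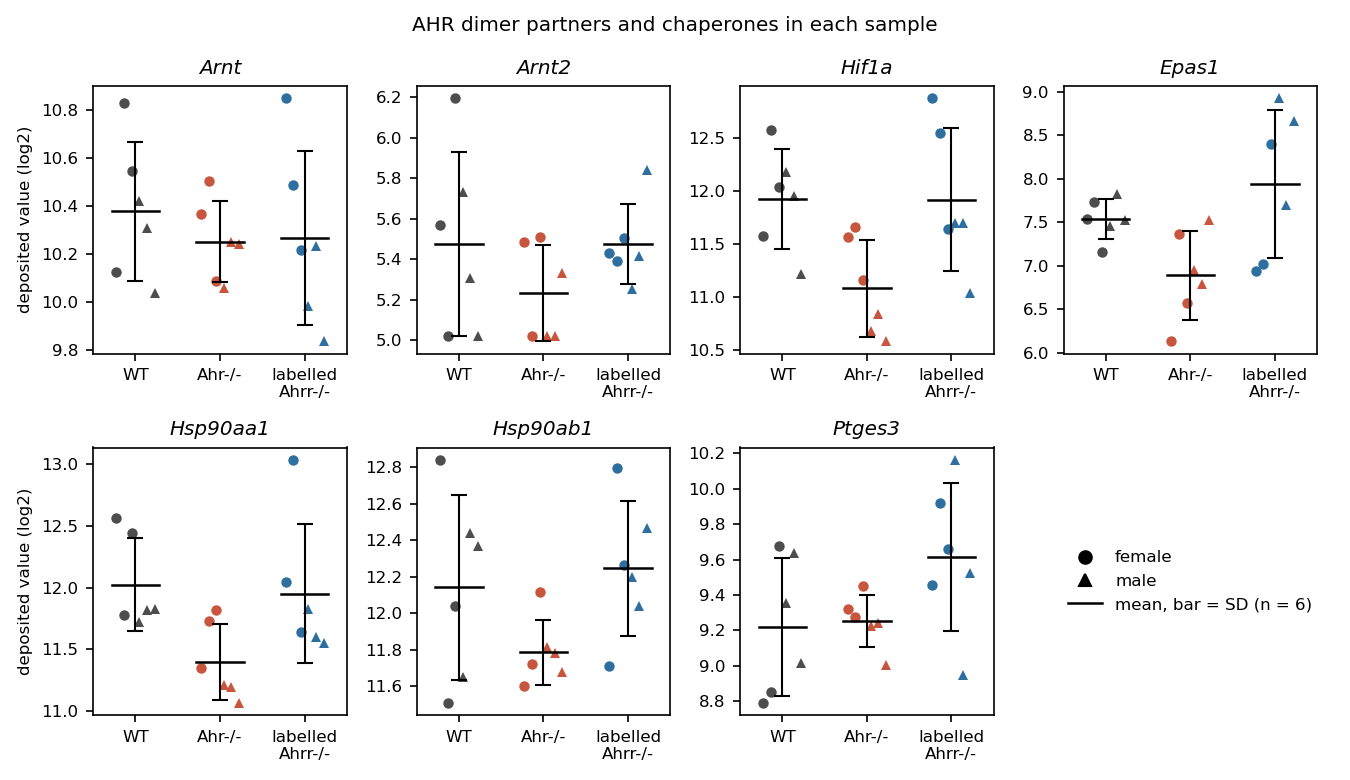
Deposited log2 values of the 7 members in every sample, circles for females and triangles for males, with the mean and SD of each genotype (n = 6). Hif1a, Hsp90aa1 and Epas1 have 4 of 6 Ahr-/- samples below all WT samples, and every panel shows overlap between genotypes.

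Promoter sequence was matched for 4 of 7 members (Arnt, Arnt2, Ptges3 and Hif1a); Hsp90aa1, Hsp90ab1 and Epas1 have no entry in the table. Arnt, Ptges3 and Hif1a are printed because they stand for partner, chaperone and hypoxia factor, as the 250 bases before the gene start in a promoter table from RefSeq (GRCm38.p6). Capitals mark matches, on either strand, to GCGTG, the core of the AHR and ARNT site, or ACGTG, the core of the HIF and ARNT site. The regions are chr3:95434140-95434389 (plus strand) for Arnt, chr10:128058732-128058981 (plus strand) for Ptges3 and chr12:73907617-73907866 (plus strand) for Hif1a, the last lying inside the annotated span of the gene. The regions of Arnt and Ptges3 end past the annotated starts given above, and the second marked match of Ptges3 lies inside that span.
Arnt: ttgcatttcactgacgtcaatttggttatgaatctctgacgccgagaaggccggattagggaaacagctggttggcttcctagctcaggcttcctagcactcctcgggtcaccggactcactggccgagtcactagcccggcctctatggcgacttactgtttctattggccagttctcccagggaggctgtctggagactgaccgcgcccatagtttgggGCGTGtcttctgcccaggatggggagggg
Ptges3: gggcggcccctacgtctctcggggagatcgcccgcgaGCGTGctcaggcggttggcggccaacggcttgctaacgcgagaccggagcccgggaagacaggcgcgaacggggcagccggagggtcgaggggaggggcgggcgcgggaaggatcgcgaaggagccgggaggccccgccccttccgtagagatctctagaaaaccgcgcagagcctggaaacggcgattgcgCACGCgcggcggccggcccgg
Hif1a: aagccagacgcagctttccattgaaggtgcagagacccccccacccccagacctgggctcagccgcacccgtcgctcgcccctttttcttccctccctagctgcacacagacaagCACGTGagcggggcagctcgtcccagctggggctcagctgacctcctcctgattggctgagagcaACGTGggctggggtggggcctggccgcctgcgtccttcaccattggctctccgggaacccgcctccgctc
Arnt held 1 match to GCGTG, Ptges3 held 2 and Arnt2 none. Hif1a held 3 matches to ACGTG, of which 2 are the same palindrome CACGTG read on opposite strands. GAANNTTC, a pair of heat shock units, was searched too and was in none of the 4. Of 32851 promoters of the same length, 28.2% held GCGTG, 16.6% held ACGTG and 6.69% held GAANNTTC. The 3 motifs were searched on both strands, and a match describes letters only.

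In eosinophils of Ahr-/- mice, RNA of Hif1a, Hsp90aa1 and Epas1 was lower than in WT, while Arnt and Ptges3 were close to WT. The call of Epas1 was lost in 19 of 26 alternative fits, and those of Hif1a and Hsp90aa1 in 2 of 27 each. Mean normalized counts in Ahr-/- were 0.550 times those of WT for Hif1a, 0.633 times for Hsp90aa1 and 0.538 times for Epas1. The inducible and the constitutive HSP90 genes both had lower means, but the constitutive one did not pass the test. Markers of other cells differed in the same comparison: 8 of 8 genes of dividing cells were lower in Ahr-/- (median -0.46 log2, 1 called by limma), as were 14 of 19 epithelial genes (median -0.45, 2 called). The median summed count of 12 pancreatic acinar genes was 1468 in WT and 108 in Ahr-/-, with overlap (82.2 to 4588 and 40.5 to 583). Of 8 tested acinar genes 8 were lower (3 called). Neutrophil and mast cell markers had higher sums, median 35420.5 in WT and 82413 in Ahr-/-, without overlap (23369 to 48321 and 54630 to 113092). Nearly all of that was Retnlg, with means of 35077 and 81840.5. Among tested genes, 6 of 8 eosinophil markers and 6 of 11 macrophage and dendritic cell genes were higher (2 called in each). In bulk samples, fewer cells of a type and less RNA per cell cannot be told apart, and whether such cells bear on the member differences was not tested.

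Hif1a fell by 0.84 log2 (SE 0.19; limma adjusted p = 0.01) and was lower in 6 of 6 Ahr-/- samples than the WT median. Hsp90aa1 fell by 0.63 (SE 0.13; limma adjusted p = 0.00615), again with 6 of 6 samples below the WT median. Epas1 fell by 0.65 (SE 0.19; limma adjusted p = 0.0483), close to the threshold of 0.05. For Hsp90ab1 the difference was -0.35 log2 (95% interval -0.77 to 0.06; limma adjusted p = 0.289). Arnt differed by -0.13 log2 (95% interval -0.39 to 0.14; limma adjusted p = 0.575) and Ptges3 by 0.03 (95% interval -0.30 to 0.36; limma adjusted p = 0.929). So 3 of 6 tested members were called, all lower, where 8.84% of 11346 tested genes were called. The median difference was -0.49 log2 over the tested members and -0.00407 over all tested genes. Epas1 was not called by limma when 1 sample was left out: Ahr-/- F1 (adjusted p = 0.121), F3 (0.1), M1 (0.0865) or M2 (0.096), or WT F1 (0.0737), F2 (0.0841), F3 (0.0576), M2 (0.0883) or M3 (0.0668). Without Ahr-/- F1 the count over all genes was 623 in place of 1003. WT samples were less deeply sequenced, and with log2 total count as a covariate the differences were -1.06 for Hif1a, -0.54 for Hsp90aa1 and -0.78 for Epas1 (limma adjusted p = 0.0715, 0.259 and 0.277, where the alternatives ranged from 0.000607 to 0.0715, from 0.000547 to 0.259 and from 0.0156 to 0.277).

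**Figure D3:**
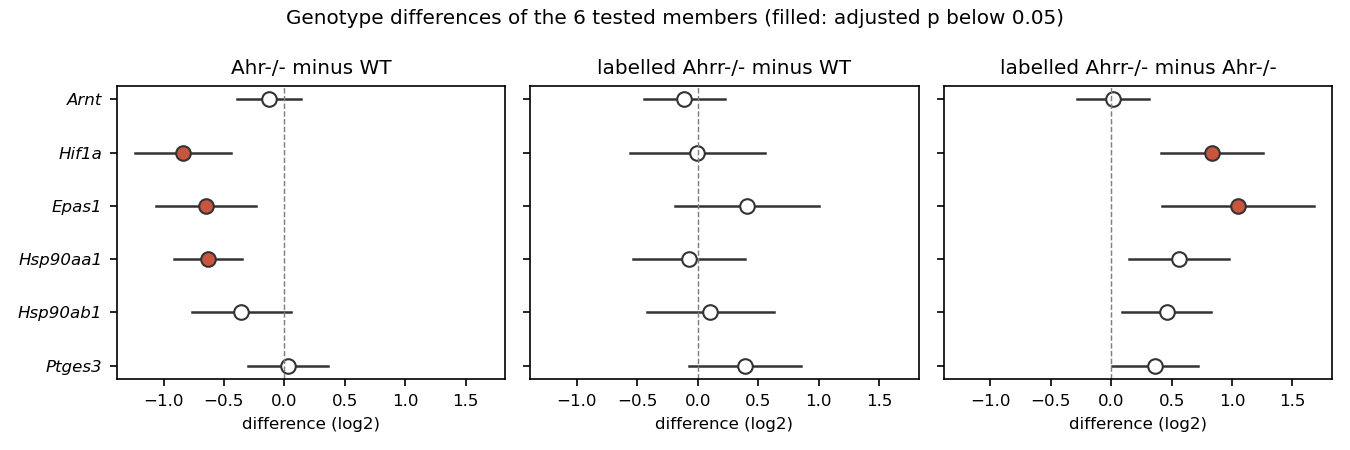
Genotype differences (log2) of the 6 tested members from limma, with 95% intervals, filled where the adjusted p was below 0.05. Hif1a, Epas1 and Hsp90aa1 lie below 0 in Ahr-/- against WT, and Arnt is within 0.13 log2 of 0 in all 3 comparisons.

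Related chaperone genes were set beside the members. Of 22 matched HSP90 co-chaperones and other complex subunits, such as Cdc37, 20 were tested, and limma called 0 (2 at an unadjusted p below 0.05, 0 with limma voom), with a median difference of 0.06 log2. Ppid, a cyclophilin co-chaperone and the most abundant of them, stood 0.37 log2 higher (limma adjusted p = 0.298). The endoplasmic reticulum form Hsp90b1 differed by -0.04 log2 and the mitochondrial form Trap1 by -0.000434, with 0 called (0 unadjusted, 0 with limma voom). Among 13 tested HSP70 genes and heat shock factor targets 11 were lower in Ahr-/-, with a median of -0.36 log2. But limma called 0 of them (3 at an unadjusted p below 0.05, 0 with limma voom). Of all 11346 tested genes, 2638 had an unadjusted p below 0.05. Hspa8, the constitutive HSP70, differed by -0.10 log2 (limma adjusted p = 0.856).

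Regulators and targets of HIF were called at 14.3% and 16.2%, beside 8.84% of all tested genes, with no test of the lists. Vhl, the ubiquitin ligase subunit that marks HIF proteins for destruction, fell by 0.78 log2 in Ahr-/- (limma adjusted p = 0.000355), and Cited2, which competes with HIF1A for its coactivators, rose by 0.79 (limma adjusted p = 0.000789). They were the only 2 called of 14 HIF regulators, whose median was -0.00448 log2. Vhl ran from 7.47 to 7.67 log2 in WT and from 6.47 to 6.99 in Ahr-/-, without overlap. Of 37 tested HIF target genes 15 were higher and 22 lower, with a median of -0.12 log2, and limma called 4 of the former and 2 of the latter. The lipid droplet gene Plin2 (0.89) and the chemokine receptor Cxcr4 (0.79) rose, and lactate dehydrogenase Ldha (-0.63) and the mTOR inhibitor Ddit4 (-0.56 log2) fell (limma adjusted p = 0.00094, 0.0402, 0.0236 and 0.0355). Hk2 and Pfkfb4 were the other 2 that rose. None of 9 tested bHLH-PAS relatives was called by limma (2 at an unadjusted p below 0.05, 0 with limma voom), and Ncoa3, the most abundant, differed by 0.11 log2 (limma adjusted p = 0.582).

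**Figure D4:**
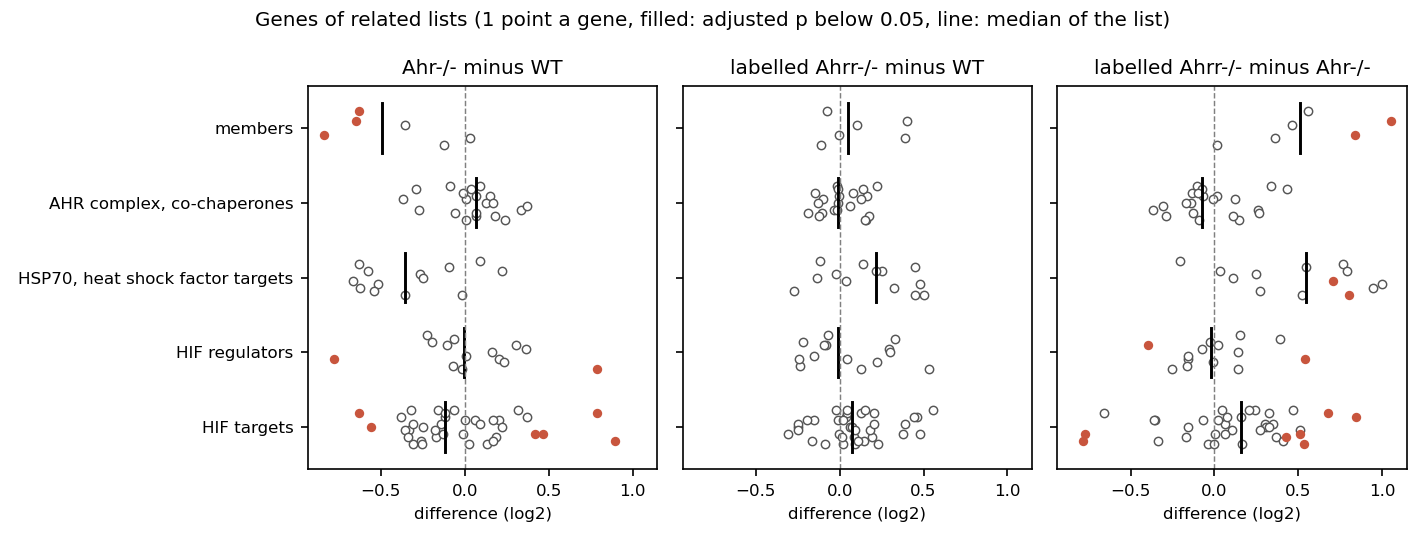
Differences (log2) of single genes in the related lists and the median of each list in the 3 comparisons, filled where limma's adjusted p was below 0.05. HSP70 and heat shock factor targets have medians of -0.36 and 0.55 log2 in the comparisons with Ahr-/-, and co-chaperones have medians of 0.06, -0.01 and -0.07 log2.

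Limma called no tested member between samples labelled Ahrr-/- and WT. A direction drawn from those samples rests on a label that Ahrr RNA did not bear out. Mean log2 values of Hif1a, Hsp90aa1 and Arnt lay within 0.11 of WT, and those of Ptges3 and Epas1 were 0.39 and 0.40 above it, where the difference of Ptges3 was 0.08 with sample weights. That of Epas1 was -0.05 with log2 total count as covariate. It was -0.26 without labelled Ahrr-/- M1, M3 and F3, the 3 samples highest in Epas1. As mean normalized counts, Epas1 stood at 1.72 and Ptges3 at 1.35 times WT. Ptges3 was higher than the WT median in 5 of 6 samples and Epas1 in 4 of 6. Beside them, 19 of 19 epithelial genes were higher than in WT (median 0.67 log2), though limma called 0 (6 at an unadjusted p below 0.05, 0 with limma voom), and median summed counts in WT and in samples labelled Ahrr-/- were 379 and 970 for fibroblast markers, 582 and 3934 for lymphocyte markers, 9680 and 10983 for macrophage and dendritic cell markers and 1468 and 258 for pancreatic acinar genes.

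Limma called 0 of 6 tested members (0 at an unadjusted p below 0.05, 0 with limma voom). Of 11546 genes 0.0779% were called, and 853 had an unadjusted p below 0.05. For Ptges3 the difference was 0.39 log2 (95% interval -0.07 to 0.85; limma adjusted p = 0.671), and for Epas1 it was 0.40 (SE 0.28; limma adjusted p = 0.701). Hsp90ab1 differed by 0.10, Hsp90aa1 by -0.07, Arnt by -0.11 and Hif1a by -0.01 log2 (limma adjusted p = 0.901, 0.923, 0.835 and 0.994). The 95% interval of Hif1a, -0.56 to 0.55 log2, leaves room for differences of some size. The median over tested members was 0.05 log2 and over all tested genes 0.01. Limma called none of the 21 co-chaperones, 13 HSP70 and heat shock genes, 14 HIF regulators and 37 HIF targets tested (0, 0, 1 and 1 at an unadjusted p below 0.05, 0 in each with limma voom), with medians of -0.01, 0.21, -0.01 and 0.07 log2.

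Set directly against Ahr-/-, samples labelled Ahrr-/- had more Hif1a and Epas1 RNA, and the means of the other tested members were higher as well. Mean normalized counts were 1.90 times those of Ahr-/- for Hif1a and 3.20 times for Epas1. Hsp90aa1, Hsp90ab1 and Ptges3 stood at 1.57, 1.41 and 1.36 times, with intervals of the difference above 0 and adjusted p above 0.05. At an unadjusted p below 0.05 limma had 5 of 6 tested members and 3760 of 11474 tested genes. Cell markers differed too: 7 of 8 tested eosinophil markers were lower (median -0.52 log2, 4 called by limma), and 8 of 8 genes of dividing cells (median 0.52, 4 called) and 19 of 19 epithelial genes (median 1.02, 9 called) were higher. Median summed counts in Ahr-/- and in samples labelled Ahrr-/- were 345 and 970 for fibroblast markers, 285 and 3934 for lymphocyte markers and 12035 and 10983 for macrophage and dendritic cell markers. Itgax carried most of the last sum (means 9334 and 6319). In that list 10 of 12 tested genes were higher (median 0.68 log2, 1 called higher and 1 lower). Neutrophil and mast cell markers, nearly all Retnlg, had median sums of 82413 and 33278, without overlap (54630 to 113092 and 22599 to 43517.5). This comparison shares its Ahr-/- samples with that against WT. Reading it as a difference of genotype rests on a label that Ahrr RNA did not bear out.

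Hif1a was 0.84 log2 higher (SE 0.20; limma adjusted p = 0.0144), with 6 of 6 samples above the Ahr-/- median, but was not called without a minimum level (0.0623) or without the sex covariate (0.0799; alternatives 0.000151 to 0.0799). Epas1 was 1.05 log2 higher (SE 0.29; limma adjusted p = 0.0298), also with 6 of 6 above that median, and was not called in those 2 fits (0.124 and 0.0671) or with log2 total count as covariate (0.135; alternatives 0.0139 to 0.371). The differences were 0.56 for Hsp90aa1, 0.46 for Hsp90ab1, 0.36 for Ptges3 and 0.02 log2 for Arnt (limma adjusted p = 0.0634, 0.0809, 0.147 and 0.948). In all, 2 of 6 tested members were called, both higher, where 14.9% of 11474 genes were called. The median was 0.51 log2 over the tested members and -0.00261 over all tested genes. Epas1 was not called by limma when Ahr-/- F1 (adjusted p = 0.0709), M1 (0.0716), M2 (0.0714) or M3 (0.0503), or labelled Ahrr-/- F3 (0.0619), M1 (0.0625) or M3 (0.0702), was left out. The count over all genes, 1708, was 907, 970, 839, 933 and 818 without Ahr-/- F1, F2, M1, M2 and M3, and 2574, 1001 and 923 without labelled Ahrr-/- F1, F3 and M3. Hsp90aa1 was called without labelled Ahrr-/- F3 (limma adjusted p = 0.0302), Hsp90ab1 without F1 (0.017) and Ptges3 without M2 (0.0375).

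Of 13 HSP70 and heat shock factor genes, 12 were higher in samples labelled Ahrr-/- than in Ahr-/-, with a median of 0.55 log2. The mitochondrial chaperonin pair Hspe1 (0.80) and Hspd1 (0.71 log2) passed the test (limma adjusted p = 0.047 and 0.0189), and Hspa8 differed by 0.55 log2 (limma adjusted p = 0.155). Among co-chaperones limma called 0 of 21 (4 at an unadjusted p below 0.05, 0 with limma voom), with a median of -0.07 log2. Vhl was 0.54 log2 higher and Rwdd3, which promotes SUMO modification of HIF1A, differed by -0.40 (limma adjusted p = 0.034 and 0.0496), the only 2 called of 14 HIF regulators (0 with limma voom). Of 37 tested HIF targets 26 were higher and 11 lower, with a median of 0.16 log2, and limma called 5 of the former and 2 of the latter. These calls are 14.3% of the regulators and 18.9% of the targets, beside 14.9% of all tested genes. Ndrg1 (0.84), a stress-responsive gene, and Ldha (0.67) were higher, and Plin2 (-0.79) and hexokinase Hk2 (-0.77 log2) lower (limma adjusted p = 0.0285, 0.0357, 0.0186 and 0.00431). Pdk1, Tpi1 and Pgam1, all of glucose metabolism, were the other 3 called higher. Clock, the circadian bHLH-PAS factor, was 0.52 log2 higher (limma adjusted p = 0.0355), the only call among 9 tested relatives.

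Epas1, known from cell types other than eosinophils, was set beside markers of those cells. Over the 18 samples its deposited value had a Pearson correlation of 0.81 with the log2 summed level of 15 endothelial markers, 0.80 with that of 19 epithelial markers and 0.79 with that of 12 fibroblast and pericyte markers, which share depth and normalization with it. Within samples labelled Ahrr-/- the 3 values were 0.95, 0.98 and 0.93 (n = 6), within Ahr-/- 0.75, -0.10 and 0.46 (n = 6), and within WT -0.32, -0.03 and -0.09 (n = 6). Whether these correlations differ between genotypes was not tested, and the epithelial sums varied little in Ahr-/-.

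In those 3 samples the epithelial sum was 78051, 77121 and 58224 normalized counts, against 36151 in M2, 18322 in F1 and 14192 in F2. WT sums ran from 13053 to 36222 and Ahr-/- sums from 11720 to 18182. All 19 epithelial genes had higher means in samples labelled Ahrr-/- than in Ahr-/- (9 called by limma), and none was below the minimum level. Lyz1, the Paneth cell lysozyme, was the most abundant, at 13927 normalized counts on average in samples labelled Ahrr-/-.

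Endothelial sums were far lower, 142 to 442 normalized counts in WT, 96.3 to 247 in Ahr-/- and 176 to 667 in samples labelled Ahrr-/-. Flt1 had the highest mean in WT (36.5) and in samples labelled Ahrr-/- (61.7), and Vwf in Ahr-/- (34.7, with Flt1 at 19.7). Over all 18 samples 9 of the 15 endothelial genes stayed below the minimum level, among them Cldn5 and Sox17, and 6 passed it, among them Flt1, Kdr and Cdh5. Mean values of Flt1 were 6.44, 6.10 and 6.74 log2 in WT, Ahr-/- and samples labelled Ahrr-/-, and those of Cdh5 were 6.08, 5.94 and 6.64. Not all genes of the list went this way: Tek had 6.14, 5.91 and 6.13 and Vwf 6.34, 6.42 and 6.44. Against WT, 2 of 3 tested endothelial genes were lower in Ahr-/- and 7 of 8 higher in samples labelled Ahrr-/-. Limma called 0 of either (0 and 2 at an unadjusted p below 0.05, 0 with limma voom). Against Ahr-/-, 7 of 7 tested endothelial genes were higher in samples labelled Ahrr-/- (median 0.62 log2). Limma called 2 of those 7 (6 at an unadjusted p below 0.05, 2 with limma voom), where 14.9% of 11474 genes were called. M1, M3 and F3 were also the 3 samples with the highest Epas1 values, so leaving them out cannot say where its RNA came from. A fit without them, chosen after seeing the data, leaves 1 male and 2 females in the group. In it Hif1a was 1.15 log2 higher than in Ahr-/- (limma adjusted p = 0.000151, alternatives 0.000151 to 0.0799) and Hsp90aa1 0.73 higher (limma adjusted p = 0.0396, alternatives 0.018 to 0.162). M3, F3 and M1 were also lowest of their group in Hif1a (11.03, 11.64 and 11.70 log2), with M2 next at 11.70. The larger difference of Hif1a thus follows from the choice. F2, which stood apart in Hsp90aa1 (13.04 log2), stayed in that fit. Whether carried-along cells supplied the Epas1 RNA was not tested.

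**Figure D5:**
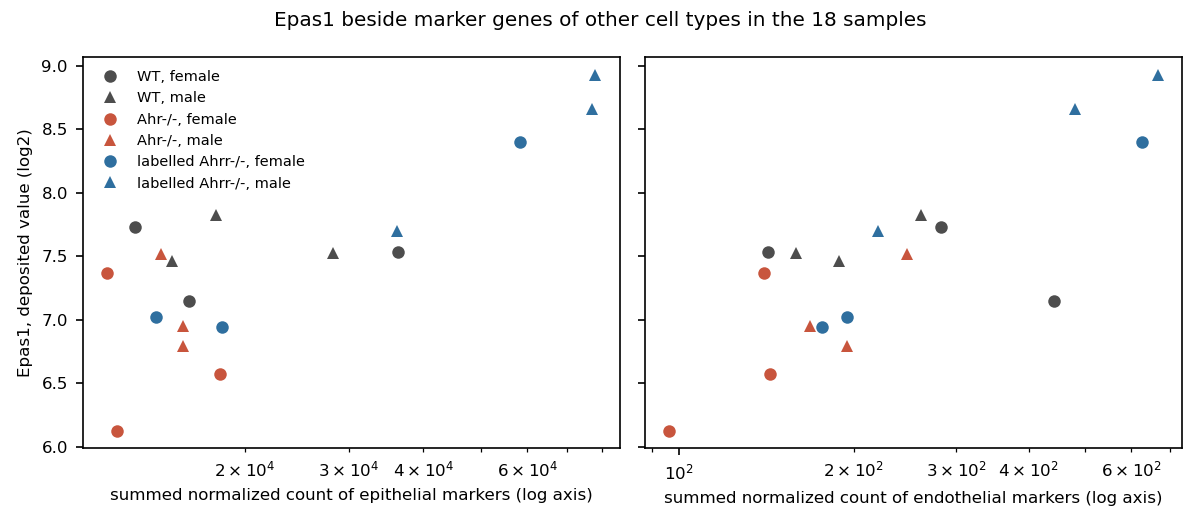
Deposited log2 value of Epas1 against the summed normalized count of epithelial and of endothelial markers (log axes), 1 point a sample. Labelled Ahrr-/- samples M1, M3 and F3 have the highest Epas1 values (8.40 to 8.93) and the highest sums in both panels.

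Other members were set beside the same sums. Ptges3 had a correlation of 0.52 with the endothelial sum, 0.28 with the epithelial one and 0.57 with that of lymphocyte markers, for which Epas1 had 0.61 (Pearson, n = 18). Arnt had a correlation of -0.63 with the epithelial sum and Hsp90ab1 one of 0.52, and Hif1a and Hsp90aa1 lay at -0.16 and 0.02 (Pearson, n = 18). Among samples labelled Ahrr-/-, F1 and F2 had the lowest epithelial sums and the highest Hif1a values (12.87 and 12.55 log2), and the other 4 had 11.03 to 11.70.

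Members were also compared between the sexes. Over all 18 samples, males were lower than females by a difference of -0.64 log2 in Hif1a (SE 0.18; limma adjusted p = 0.0638) and -0.51 in Hsp90aa1 (SE 0.15; limma adjusted p = 0.0699). In Ahr-/- the 3 males had 10.58 to 10.84 log2 of Hif1a and the 3 females 11.16 to 11.65, without overlap. The sexes overlapped in WT (males 11.22 to 12.18, females 11.57 to 12.57) and in samples labelled Ahrr-/- (11.03 to 11.70 and 11.64 to 12.87). Epas1 ran the other way, 0.50 log2 higher in males (SE 0.22; limma adjusted p = 0.23). Limma called 0 of 6 members between males and females (4 at an unadjusted p below 0.05, 0 with limma voom). Of 11468 genes 3.06% were called, and 2145 had an unadjusted p below 0.05.

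Whether sex altered a genotype difference was tested with an interaction term. For Ahr-/- against WT limma called 0 of 6 members and 0% of 11346 genes (0 members and 533 genes at an unadjusted p below 0.05; with limma voom 0 members and 0 genes). For labelled Ahrr-/- against WT it called 0 of 6 members and 0% of 11546 genes (0 members and 544 genes unadjusted; with limma voom 0 and 0). The interaction of Hif1a was -0.48 log2 in the former, with a 95% interval of -1.27 to 0.30, and that of Epas1 was 0.84 in the latter, with a 95% interval of -0.29 to 1.97.

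How the members varied together was described by Pearson correlations over the 18 samples, which share genotype differences and scaling. Arnt and Hif1a went together (0.76, and 0.84 once genotype and sex were removed). Hsp90aa1 and Hsp90ab1 had 0.63 and 0.64 before and after that step, while Hsp90aa1 and Hif1a had 0.65 before and 0.05 after. Hsp90ab1 was opposed to Arnt (-0.46 before, -0.74 after) and, after that step, to Hif1a (0.01 before, -0.58 after). Hif1a and Ahr had 0.07 before and 0.91 after, since within each genotype and sex samples high in one were high in the other. Epas1 and Ahr were opposed (-0.76, and -0.55 after).

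For each tested member the closest genes among 11467 were named by the same measure. Arnt was nearest to Abcc1 (0.94), Smchd1 (0.94) and Pitpnc1 (0.93), and farthest from Pcdh1 (-0.90). Hif1a was nearest to Zbtb25 (0.96), Npepps (0.95) and Tbc1d1 (0.95), and farthest from Riox1 (-0.89). Those of Epas1 were Nid1 (0.92), a basement membrane gene, Ly6a (0.90) and Dut (0.89), with Zfp949 at the other end (-0.87). Hsp90aa1 went with D130020L05Rik (0.90), Eif4h (0.90) and Tatdn2 (0.89) and against Cdk7 (-0.86). Hsp90ab1 went with Plxna1 (0.85), Lman2 (0.85) and Hspe1 (0.84), the last a mitochondrial co-chaperonin, and against 9230117E06Rik (-0.87). Ptges3 went with Cstf2t (0.88), Dnpep (0.82) and Rbis (0.81) and against Ints4 (-0.84).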

How the data were processed

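Eosinophil RNA of 18 samples was made into cDNA with the NuGEN Ovation kit and sequenced single-ended. The authors aligned reads to GRCm38 and counted them per gene, and the submitters' processing notes name STAR 2.5.2, RSEM 1.3.0, DESeq2 and R 4.0.3. The deposited table holds log2 values after DESeq2's variance-stabilizing transformation. Turning the transformation back gave whole counts for 100% of values (tolerance 0.001, largest deviation 3.7e-08), which served for depth (3842977 to 12046933 counts per sample), levels per kilobase and alternatives. Genes with a mean at least 1 above the lowest value were fitted with limma 3.58.1 in R 4.3.3, with a mean-variance trend and sex as covariate, on the 12 samples of each genotype comparison, after a test on simulated data. Calls used a Benjamini-Hochberg adjusted p below 0.05. Arnt2, below that minimum, had exact permutation tests. Python 3.11.15 did the rest. Alternatives changed the minimum, scaling, trend, weights, covariates, block and samples, or used log2(normalized count + 1 or + 8) or limma voom. The paper gives 6 mice for each genotype it covers, WT and Ahr-/-, and does not cover the samples labelled Ahrr-/-, so p-values measure the spread between mice in the former. Related genes came from lists (co-chaperones, HSP90 paralogs, HSP70 and heat shock genes, bHLH-PAS relatives, HIF regulators and targets, AHR targets): the called ones, at most 4 per list and comparison by size, and the most abundant, of which 1 is not reported here. Closest genes were the 3 highest and the lowest Pearson correlation. Marker lists covered other cell types. Members and lists were chosen with earlier results of these data known. Genes named outside this rule (Cdc37, Trap1, Hk2, Pfkfb4, Pdk1, Tpi1, Pgam1 and single markers) were chosen after their values were seen.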

Additional observations from a re-analysis of the deposited data

Results flagged for a closer look

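Hsp90aa1 reached 13.04 log2 in the female sample F2 labelled Ahrr-/-, and the gap to the next sample was 0.665 of that group's whole range, above Dixon's 95% critical value for 6 samples. The number of genes with a count above 0 was 20244 in WT F3 and 19694 in Ahr-/- F3, with gaps of 0.729 and 0.709 of their groups' ranges. In all, 3 values stood apart this way in 66 groups tested, and chance gives about 1 in 20. Member differences without WT F3 and Ahr-/- F3 are among the alternatives.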

How the results depend on the processing

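For Ahr-/- against WT, limma called Hif1a and Hsp90aa1 in every fit that left out 1 sample (differences -0.9766 to -0.7259 and -0.74 to -0.5645 log2). Epas1 (-0.784 to -0.5093) was lost without Ahr-/- F1, F3, M1 or M2 or WT F1, F2, F3, M2 or M3, and Ptges3 ran from -0.06242 to 0.1344; 623 to 1124 genes and 2 to 3 members were called. Other alternatives gave lower counts: 623 genes and 1 member with no minimum (Hif1a -0.8411, adjusted p = 0.0607; Epas1 -0.6486, 0.162), 553 and 1 with all 18 samples (Hsp90aa1 -0.6318, 0.054; Epas1 -0.6486, 0.211), and 236 genes with log2 total count as covariate, where limma called 0 members (3 at an unadjusted p below 0.05; Hif1a -1.057, 0.0715; Hsp90aa1 -0.5442, 0.259; Epas1 -0.7789, 0.277). Epas1 also missed the threshold after centring (-0.6305, 0.0535), quantile normalization (-0.6168, 0.0628), log2 of count + 1 (-1.08, 0.0556) or + 8 (-0.9742, 0.0513), with limma voom (-1.031, 0.0562) and without covariate (-0.6486, 0.0612). Leaving out the WT and Ahr-/- samples with the most genes detected, chosen after seeing the data, gave 586 genes and Epas1 -0.663 (0.109). Sample weights turned Ptges3 to -0.06505. Under the minimum of 3 Epas1 could not be fitted.

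For labelled Ahrr-/- against WT, 9 genes were called, and 4 with no minimum, centring, log2 of count + 1 or limma voom, 5 with the minimum of 3 or quantile normalization (Hif1a 0.02293), 18 with sample weights, 14 with all 18 samples (1 member at an unadjusted p below 0.05) and 1 with total count as covariate (Hsp90aa1 0.2996, Epas1 -0.04844). Leaving out 1 sample gave 4 to 25 genes (25 without labelled Ahrr-/- F1), and limma called 0 members (0 with limma voom, run on all 12 samples only). At an unadjusted p below 0.05 limma had 1 member without labelled Ahrr-/- M2, 1 without WT F3 and 0 without any other sample. In these fits without 1 sample Hsp90aa1 ran from -0.2566 to 0.05377, Hsp90ab1 from -0.03582 to 0.2603, Hif1a from -0.1541 to 0.1262 and Arnt2 from -0.0923 to 0.1425. Arnt2 was 0.0844 with log2 of count + 1. Leaving out labelled Ahrr-/- M1, M3 and F3, chosen after seeing the data, gave 4 genes, Arnt 0.094, Hsp90aa1 0.1015, Hif1a 0.3683 and Epas1 -0.2641. These 3 had the highest Epas1 and the lowest Hif1a values of their group. The lower Epas1 and the higher Hif1a difference thus follow from the choice.

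For labelled Ahrr-/- against Ahr-/-, 713 genes were called with no minimum, where limma called 0 members (4 at an unadjusted p below 0.05; Hif1a 0.8355, adjusted p = 0.0623; Epas1 1.053, 0.124), 828 and 1 member with the minimum of 3, 994 and 0 members without covariate (4 unadjusted; Hif1a 0.8355, 0.0799; Epas1 1.053, 0.0671), and 524 and 1 with total count as covariate (Epas1 0.6847, 0.135). Members called were 4 with sample weights (Hsp90aa1 0.5841, 0.0216; Hsp90ab1 0.4543, 0.0403). Hsp90aa1 was also called after quantile normalization (0.6181, 0.018) and with all 18 samples (0.5582, 0.0481), and centring turned Arnt to -0.04825. Leaving out M1, M3 and F3 gave 626 genes, Hsp90aa1 0.7329 (0.0396) and Epas1 0.4149 (0.371). Leaving out 1 sample gave 818 to 2574 genes and 1 to 3 members, Hif1a always called (0.7139 to 0.9875), Arnt -0.07854 to 0.07608, Hsp90aa1 0.3753 to 0.6858 (called without labelled Ahrr-/- F3), Hsp90ab1 0.3417 to 0.5827 (F1), Ptges3 0.2199 to 0.4903 (M2), Epas1 0.8752 to 1.235 (lost without Ahr-/- F1, M1, M2 or M3 or labelled Ahrr-/- F3, M1 or M3) and Arnt2 0.1676 to 0.2968 (exact permutation p = 0.0498 without Ahr-/- F3). The share of called genes that were higher was 54% and fell to 39.4% with no minimum and 45.7% after centring.

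Labels F1 to M3 recur in each genotype, and with them as replicate block in place of sex, 918, 4 and 1946 genes were called in the 3 comparisons, and Hsp90aa1 (0.5582, 0.0485) in the last; samples of 1 label were not more alike than others in most cases, so the replicate block is not used elsewhere.

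The causes of the other changes were not tested. WT samples had fewer counts, so total count and genotype go together; below about 10 counts, as for Arnt2, differences rest on single reads. Sorted bulk RNA cannot separate cell composition from RNA per cell, WT mice were not littermates of Ahr-/- mice, and the samples labelled Ahrr-/- kept Ahrr RNA.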
